A study of Mus musculus with 16 samples.

Results

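The tumors described here are 11 of the 16 mouse rhabdoid tumors of the series, namely those that grew inside the cranial cavity. They were chosen by the labelled site, which put 5 tumors within the central nervous system (intra-CNS) and 6 in the cranium but outside it (extra-CNS). The other 5 tumors grew outside the cranium and did not enter the fit. The study assigned the intra-CNS tumors to the Shh subgroup and the intracranial extra-CNS tumors to the Myc subgroup, and they are called Shh and Myc tumors below. All 11 mice carried Smarcb1flox/flox;R26-CreERT2, in which tamoxifen given to the pregnant mother activates a Cre recombinase driven by the ubiquitous Rosa26 locus and deletes Smarcb1 in cells of any type. Each tumor came from a different mouse, was cut out of frozen tissue by eye and was read as bulk polyA RNA. Both groups carry the same alleles, and no group with intact Smarcb1 was part of the comparison. The subgroups were themselves assigned by clustering of gene expression that included these tumors, and a difference in expression between them is therefore not independent evidence of the subgroup.

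Tamoxifen was given at embryonic day (E) 6 to all 5 Shh mice, whereas 1 Myc mouse received it at E6, 1 at E7 and 4 at E8. Site, subgroup and most of the difference in the day of tamoxifen therefore cannot be told apart. In a fit limited to E6 and E7 (5 Shh and 2 Myc tumors), 16 of the 134 called genes named here lost their call while keeping their direction, namely Gli1, Nkx2-2, Fgf8, Tead2, Col2a1, Ina, Slc7a11, Egln3, Ccl27a, Camk2a, Slc1a2 and Syn1 on the Shh side and Gata4, Gzme, Gzmb and H2-DMa on the Myc side. The Shh mice were 30 to 180 days old at collection (mean 88 ± 58.7, SD, n = 5) and the Myc mice 52 to 170 days (mean 113 ± 41.7, SD, n = 6), a difference of -25.3 days that did not pass a two-sided exact permutation test (p = 0.411, where the smallest p of the 462 splits is 0.00433). Sex was labelled for 2 Shh mice, both female, and for 5 Myc mice, of which 3 were female.

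Smarcb1 is a core subunit of the SWI/SNF complex, which moves nucleosomes and opposes Polycomb repression, and its loss defines rhabdoid tumors. Hedgehog ligands bind the receptor Ptch1 and release Smo, which leads to activation of the Gli transcription factors, and Ptch1 and Gli1 are themselves induced by the pathway. Notch signalling acts through the cofactor Rbpj on Hes genes and holds neural progenitors back from differentiation. Myc, Mycn and Mycl are related transcription factors that drive growth in different lineages, with Mycn typical of neural progenitors.

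Libraries held 17889968 to 110177889 counts per tumor. Expression is given as CPM, the counts of a gene scaled to the size of its library after TMM normalization, and a log2 fold change is the Shh level relative to the Myc level. A gene was called when its adjusted p in edgeR's quasi-likelihood test was under 0.05 and its absolute log2 fold change above 1. Of 21418 genes with a count, 2365 (11%) were called higher and 2554 (11.9%) lower in Shh tumors, together 23%, and the median log2 fold change of all genes was -0.09. Among the 14787 genes that averaged 50 counts or more per tumor, the groups did not overlap for 3161 (21.4%). With limma on the authors' TPM values the split was 3840 higher and 1229 lower, and the median of all genes 0.23, so that a median that changes sign on that scale is given below with both values. The shares of the edgeR fit are the background against which the gene families below are counted. A list is described by how many of its members with a count were called and by its median, with no test of the list.

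In each group, 1 library stood apart. In the Myc tumor of mouse R26P115, the choroid plexus genes Ttr, a thyroxine carrier, and Enpp2, a lysophospholipase, took 10.1% and 6.9% of all counts. The 18 choroid plexus and ependyma markers summed to 237188 CPM in that tumor and to 16.8 to 96 CPM in the other Myc tumors. Correlations of log expression averaged 0.702 between R26P115 and the other Myc tumors, and 0.88 among those 5 tumors. In the Shh tumor of mouse 29048, 14 oligodendrocyte markers summed to 11121 CPM against 103 to 291 CPM in the other Shh tumors, and mature neuron markers to 5015 CPM against 214 to 1601. The Shh correlations averaged 0.881 (SD 0.0592 over 10 pairs), and those between the groups 0.647. The summed markers of the mitosis list were lowest in these libraries within their groups, at 452 CPM in R26P115 and 970 CPM in 29048. The source of these marker levels was not tested, and fits without these libraries are given below. List counts that moved by over 1.5 times and by 3 or more members when 1 tumor was left out are given with the lowest or highest count and the tumor behind it. Without R26P115, 3251 genes (15.2%) were called higher and 2936 (13.8%) lower. In bulk tissue, fewer cells of a type and less RNA per cell cannot be told apart.

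**Figure D1:**
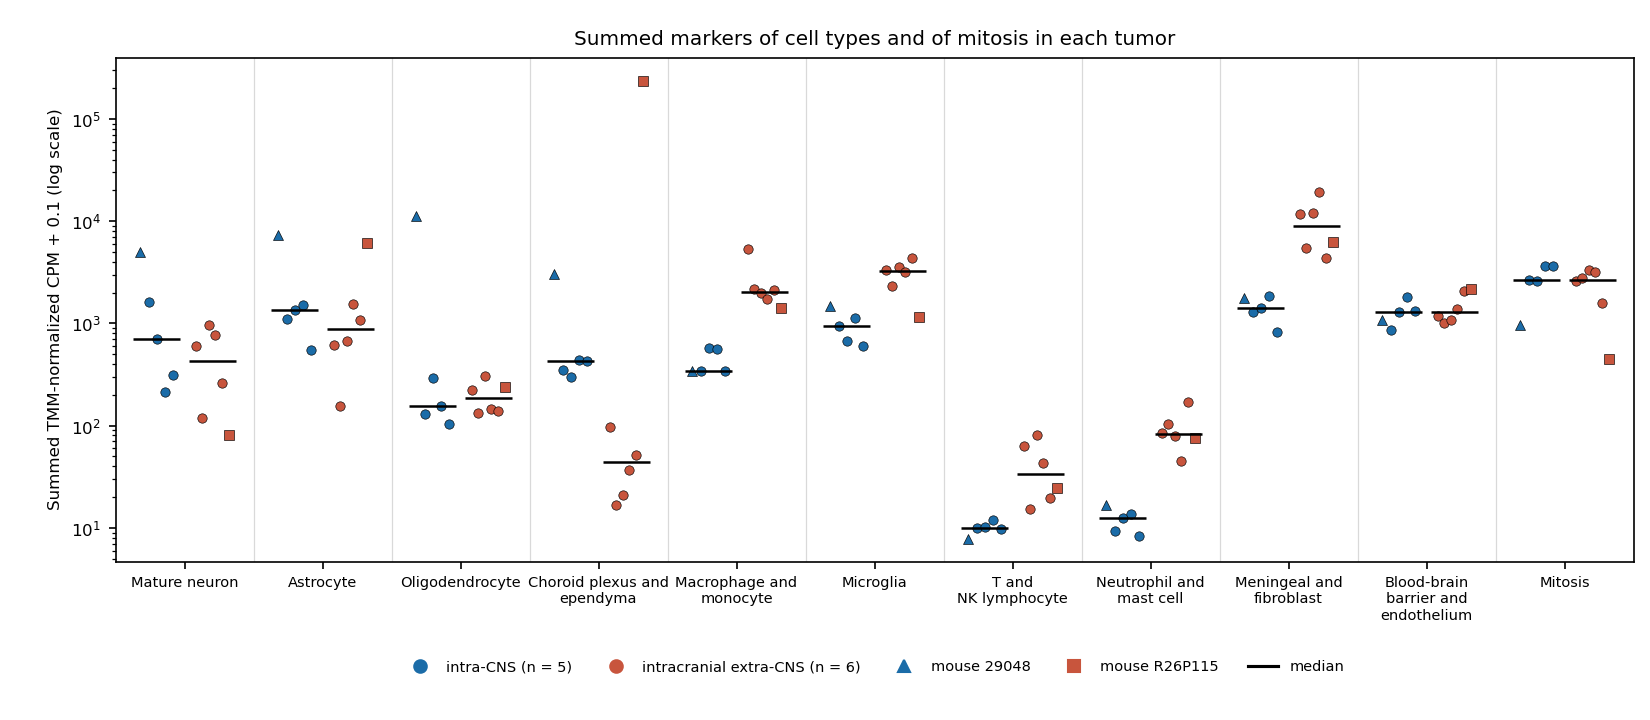
Summed CPM of marker lists for cell types and of the mitosis list (x axis) in each tumor, on a log scale with 0.1 CPM added; each point is 1 tumor and each bar a group median. Mouse R26P115 reaches 237188 CPM of choroid plexus markers and mouse 29048 reaches 11121 CPM of oligodendrocyte markers, while macrophage markers separate the groups.

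The deleted gene comes first. Values of the 5 Shh tumors are given throughout in the order of mice 29048, 38594A, 29050A, R26P98 and R26P87, and those of the 6 Myc tumors by their lowest value, median and highest value. Smarcb1 (chr10:75896769-75921617 on GRCm38) was at 31.2, 2.11, 5.45, 2.45 and 3.77 CPM in Shh tumors and at 5.43, 8.3 and 39.1 CPM in Myc tumors. The highest level of each group was in 29048 and in R26P115, the libraries with the most RNA of oligodendrocyte and choroid plexus genes. The groups overlapped, and the log2 fold change of -0.59 (SE 0.80) was not called (adjusted p = 0.601, edgeR). It changed sign to 0.10 without R26P115 (adjusted p = 0.927), and was called lower without 29048 (-1.97, adjusted p = 0.0486, edgeR) and without both of these tumors (-1.34, adjusted p = 0.0355). The count table does not show which exons the reads cover, so that transcripts lacking the deleted exon cannot be told apart from intact ones.

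Of 29 SWI/SNF subunits, 6 were higher and 1 lower in Shh tumors, with a median log2 fold change of 0.59. On the TPM scale 16 were higher and 0 lower, with a median of 1.10. Smarcd3, a subunit of muscle and neural complexes, was higher with a log2 fold change of 2.41 (SE 0.28, adjusted p = 2.54e-04), at 92.2 to 151 CPM in Shh and 14.4 to 39.5 CPM in Myc tumors. Dpf3, a subunit of neuronal complexes, was higher by 5.31, at 2.95 to 5.95 against 0.0492 to 0.22 CPM. Smarca4, the ATPase, was at 0.85 (adjusted p = 0.0156) and so below the fold threshold, with overlapping groups. Among 27 Polycomb genes, 6 were higher and 0 lower, and the median of -0.03 became 0.57 on the TPM scale. Phc1, of the PRC1 complex, was at 107 to 375 CPM in Shh and 45.6 to 65.9 CPM in Myc tumors (2.33, adjusted p = 5.14e-04). Jarid2, a cofactor of PRC2, was higher by 1.39. Of 16 repressors of neuronal genes, 3 were higher and 1 lower, and 0 were higher without 43989C. Rest, which silences neuronal genes outside neurons, was at 5.31, 13.4, 23.1, 17.9 and 25.6 CPM in Shh tumors and at 19.3, 30.1 and 38 CPM in Myc tumors. Its groups overlapped and it was not called (-0.75, SE 0.38, adjusted p = 0.158). The deacetylase Hdac2 was higher (1.10, and 0.99, under the fold threshold, without 43989C) and the phosphatase Ctdsp1, which acts with Rest, was lower (-1.29, adjusted p = 0.00227).

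The Myc family split between the groups. Myc (chr15:61985391-61990374) was at 10.8, 21.8, 7.41, 9.83 and 22.2 CPM in Shh tumors and at 11.3, 128 and 250 CPM in Myc tumors. The lowest Myc tumor was R26P115, and the other 5 lay at 103 CPM or above, beyond every Shh tumor. The log2 fold change was -3.22 (SE 0.64, adjusted p = 0.0038), and -3.46 without R26P115 (adjusted p = 1.70e-04). Mycn (chr12:12936093-12941914) was at 28.9, 92.9, 281, 239 and 314 CPM in Shh tumors and at 0, 0.23 and 0.549 CPM in Myc tumors. Every Shh tumor exceeded all 6 Myc tumors (log2 fold change 9.49, SE 0.89, adjusted p = 9.22e-05). Mycl (chr4:122995652-123002485) was at 42.1, 83.1, 87.8, 91.8 and 101 CPM in Shh tumors and at 0.64, 1.66 and 3.93 CPM in Myc tumors. It was higher by 5.46 (SE 0.51, adjusted p = 9.03e-05), again without overlap. Per gene length, the median of Mycn in Shh tumors was 279 TPM and that of Mycl 72.2 TPM, where Myc had 13.8 TPM. In Myc tumors the medians were 118 TPM for Myc, 1.01 TPM for Mycl and 0.183 TPM for Mycn. Of all 13 genes of the list, 2 were higher and 1 lower.

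Among 27 Hedgehog genes, 13 were higher and 1 lower in Shh tumors, with a median of 1.69. Gli1 (chr10:127329882-127341974), an activator and target of the pathway, was at 38.6, 78.2, 29.5, 158 and 20.8 CPM in Shh tumors and at 0.693, 5.99 and 14.5 CPM in Myc tumors (3.25, SE 0.73, adjusted p = 0.00728). Gli2, the main activator, was at 31.1, 61.8, 123, 151 and 165 CPM and at 0.692, 2.39 and 14.7 CPM (4.34, SE 0.85, adjusted p = 0.00361). Ptch1 was at 227, 520, 386, 942 and 300 CPM and at 25.6, 31.3 and 133 CPM (3.25, SE 0.54, adjusted p = 0.00151). None of these 3 genes overlapped between the groups, and the highest Myc value of Ptch1 was that of R26P115. Scube2, which helps to release the ligand from cells, was higher by 5.43 but stayed at or under 6.9 CPM. The member called lower was Hhat, which attaches palmitate to the ligand (-1.91, adjusted p = 0.016). The targets Ccnd1 and Ccnd2 were not called, at -0.81 (adjusted p = 0.244) and -0.76 (adjusted p = 0.352), and their groups overlapped. Without R26P115, Ccnd1 was called lower in Shh tumors (-1.03, adjusted p = 0.0342, edgeR). In the 2 Myc tumors with tamoxifen at E6 or E7 against the 5 Shh tumors, 7 of the 27 genes were called higher and 1 lower, and Gli1 was not called (2.78, adjusted p = 0.0962).

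**Figure D2:**
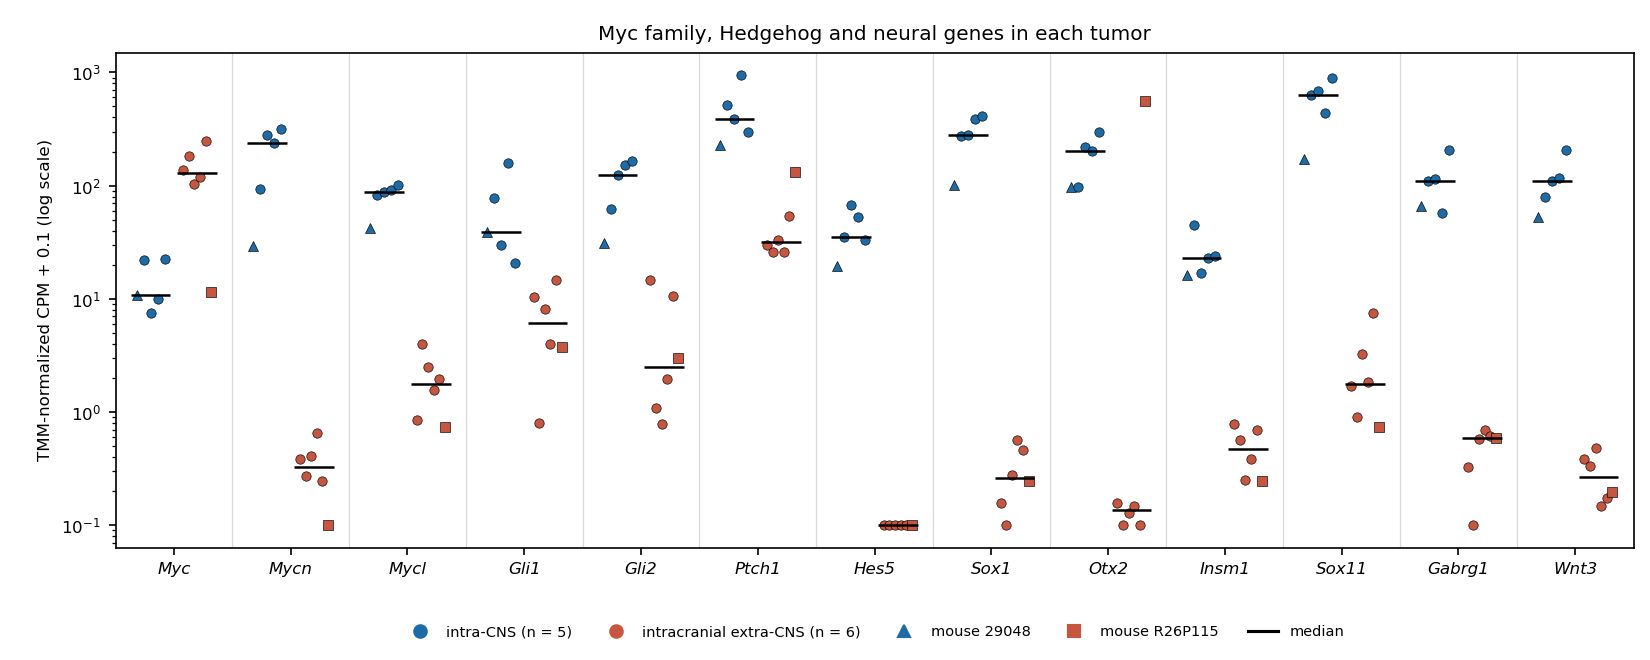
TMM-normalized CPM plus 0.1 on a log scale (y axis) of 13 genes (x axis) in each tumor, with group medians as bars. Mycn, Mycl and the neural genes sit above every Myc tumor in the 5 Shh tumors, except Otx2, which reaches 563 CPM in mouse R26P115, and Myc is higher in 5 of 6 Myc tumors.

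Of 36 Notch genes, 13 were higher and 3 lower, with a median of 0.82. Hes5 (chr4:154960923-154962371), the Notch effector of neural progenitors, was at 19.2, 34.8, 67.3, 52.6 and 33.3 CPM in Shh tumors and had no count in any of the 6 Myc tumors. Against a floor of 3 counts per library its level in the Shh group was at least 367-fold higher (adjusted p = 1.27e-04, edgeR). Dner, a transmembrane Notch ligand of neurons, was at 320 to 568 CPM in Shh and 6.42 to 37.5 CPM in Myc tumors (4.97, adjusted p = 1.42e-04). Rbpj and Hes7 lay on the other side. Rbpj was at 53.9, 89.1, 95.8, 88 and 124 CPM in Shh tumors and at 88.3, 354 and 598 CPM in Myc tumors, of which the lowest was R26P115 (-2.02, SE 0.41, adjusted p = 0.00422). Hes7, a gene of the somite clock, was at most 0.283 CPM in Shh tumors and 0.344 to 16.6 CPM in Myc tumors (-5.30).

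Of all lists counted, those with the highest shares called higher held neuronal genes. Of 39 proneural and neuronal differentiation factors, 31 were higher and 0 lower, with a median of 4.67 (4.65 with genes that had no count in a group set at their bound). Insm1, a zinc finger factor of newborn neurons, was at 16.1, 45.1, 16.9, 22.7 and 23.8 CPM in Shh tumors and at 0.148, 0.372 and 0.688 CPM in Myc tumors (6.03, SE 0.56, adjusted p = 9.03e-05). Sox11 (chr12:27334264-27342574), which acts in immature neurons, was at 171, 630, 684, 438 and 896 CPM and at 0.64, 1.67 and 7.38 CPM (7.78, SE 0.78, adjusted p = 1.29e-04). Neither gene overlapped between the groups. Of 40 neuronal structural genes, 31 were higher and 0 lower (median 3.92), led by the RNA-binding protein Elavl4 at 51.3 to 234 CPM against 0.443 to 2.79 CPM (6.76, adjusted p = 7.91e-05). Cplx2, which clamps synaptic vesicles, was at 101 to 380 CPM against 11.6 to 25.7 CPM (3.77, adjusted p = 9.03e-05).

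Of 55 genes of synaptic vesicles and release, 33 were higher and 1 lower (median 3.23), among them the vesicle coat gene Syn2 (5.81, adjusted p = 3.16e-04). Of 47 glutamate and GABA receptor genes, 29 were higher and 0 lower (median 4.17). Gabrg1, a subunit of the GABA-A receptor, was at 66.5, 110, 115, 56.9 and 205 CPM in Shh tumors and at 0, 0.485 and 0.596 CPM in Myc tumors (8.10, SE 0.70, adjusted p = 6.89e-05). Of 80 voltage-gated channels, 34 were higher and 2 lower (median 2.17, and 2.13 with genes at their bound), with the potassium channel Kcnc2 at 28.3 to 232 CPM against 0.231 to 1.37 CPM (7.76) and the sodium channel Scn3a at 45 to 164 against 0.492 to 4.28 CPM (6.17). Of 75 axon guidance genes, 34 were higher and 6 lower (median 1.64), 38 and 2 on the TPM scale, and 19 and 5 with the Myc tumors of E6 and E7 alone. The netrin receptor Dcc was higher (6.96, adjusted p = 1.57e-04) and the ephrin receptor Epha2 lower (-5.11, adjusted p = 0.00114). Of 55 clustered protocadherins, which label single neurons, 14 were higher and 0 lower (median 1.38), 21 were higher without R26P115, and 27 on the TPM scale. Pcdhb6 was higher by 5.54, and reads of such near-identical genes may be split between copies.

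Mouse 29048, with its high oligodendrocyte and mature neuron markers, also held neuronal RNA, and the counts were repeated without it. Then 29 proneural factors, 27 structural genes, 26 synaptic genes, 29 receptors and 27 channels were called higher. With the 2 Myc tumors of E6 and E7 alone, these counts were 21, 16, 14, 17 and 13. Of 16 mature neuron markers, 8 were higher and 0 lower with a median of 3.27, and 4 were higher with a median of 1.49 without it. The kinase gene Camk2a was at 23.4 to 562 CPM in Shh and 0.689 to 6.73 CPM in Myc tumors (6.28, adjusted p = 0.00106).

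The promoters of 3 genes of this neural group are shown because they belong to called genes of the Notch, proneural and synaptic lists and hold the letters read by a factor of each pathway. Each is the stretch of 250 bases before the annotated start, 5′ to 3′ on the gene's strand, from RefSeq on GRCm38.p6, and the gene is the called member of lowest adjusted p whose stretch holds the motif on either strand. Capitals mark the Rbpj letters TGGGAA in Hes5 (chr4:154960673-154960922, plus strand, 2 matches), the E-box CAGCTG in Sox11 (chr12:27342719-27342968, minus strand) and TTCAGCACC, the left part of the Rest element, in Syn1 (chrX:20920919-20921168, minus strand).
Hes5: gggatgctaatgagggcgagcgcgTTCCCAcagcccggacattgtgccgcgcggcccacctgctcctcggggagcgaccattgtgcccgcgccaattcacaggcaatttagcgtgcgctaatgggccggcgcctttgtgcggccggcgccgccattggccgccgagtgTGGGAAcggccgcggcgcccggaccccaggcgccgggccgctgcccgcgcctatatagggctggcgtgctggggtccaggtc
Sox11: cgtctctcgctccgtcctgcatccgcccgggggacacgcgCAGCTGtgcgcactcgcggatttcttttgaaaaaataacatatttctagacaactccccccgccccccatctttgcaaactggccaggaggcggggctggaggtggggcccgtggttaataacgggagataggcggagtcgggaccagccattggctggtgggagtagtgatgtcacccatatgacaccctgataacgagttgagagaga
Syn1: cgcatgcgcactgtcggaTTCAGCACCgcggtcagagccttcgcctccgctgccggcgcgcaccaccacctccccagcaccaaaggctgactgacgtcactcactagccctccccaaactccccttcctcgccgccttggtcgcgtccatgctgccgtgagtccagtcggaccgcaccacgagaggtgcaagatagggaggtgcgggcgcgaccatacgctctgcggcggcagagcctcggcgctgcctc
Among 22862 promoters of this length with a single entry per gene, 21.4% held TGGGAA, 12.7% CAGCTG and 0.276% TTCAGCACC on either strand. Such a match describes the letters only. Syn1, which coats synaptic vesicles, was at 300, 163, 42.3, 18.9 and 28.3 CPM in Shh tumors and at 0.935, 13.3 and 28.7 CPM in Myc tumors. The groups overlapped, and the highest value was that of 29048 (3.02, SE 0.87, adjusted p = 0.0236). The call was lost without 29048 (2.22, adjusted p = 0.0689, edgeR), without 38594A (2.84, adjusted p = 0.0514), with the naming scheme of the mice as covariate (2.69, adjusted p = 0.052) and with the Myc tumors of E6 and E7 alone (2.32, adjusted p = 0.212). Only 62% of the tested genes had a single promoter in the table, so that a comparison of motif shares between genes called higher and lower is void.

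Of 33 neural progenitor genes, 13 were higher and 2 lower (median 2.08). Sox1 (chr8:12395295-12400126), a marker of neuroepithelium, was at 102, 276, 280, 391 and 413 CPM in Shh tumors and at 0, 0.163 and 0.471 CPM in Myc tumors (10.34, SE 0.77, adjusted p = 5.79e-05). Fabp7, of radial glia, was at 183 to 694 against 0.289 to 13.8 CPM (6.63, adjusted p = 0.0013). Of 25 ventral forebrain and ganglionic eminence factors, 9 were higher and 2 lower (median 1.43), and 6 were higher and 2 lower with the Myc tumors of E6 and E7 alone. Gsx1, which patterns the ganglionic eminence, was at 6.49, 39.4, 39.4, 24.7 and 489 CPM in Shh tumors, and the 6 Myc tumors together held 2 counts. The pooled ratio was 11696, with an exact 95% Poisson interval of 3238 to 96577 that covers counting error of those 2 counts only. The highest Shh tumor was R26P87, which held 13745 of the 19235 Shh counts. Nkx2-2 was higher by 4.77 but at most 7.15 CPM. Lhx8, of basal forebrain neurons and also of the jaw mesenchyme, was at most 0.257 CPM in Shh tumors and at 0.0492, 37.9 and 143 CPM in Myc tumors (-8.69, adjusted p = 0.00252), and the groups overlapped through R26P115.

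Of 31 midbrain and hindbrain factors, 14 were higher and 1 lower (median 2.5), 18 were higher without R26P115, and 7 with the Myc tumors of E6 and E7 alone. Pax5, of the midbrain and hindbrain boundary, was at 3.82 to 34.8 CPM in Shh and at most 0.196 CPM in Myc tumors (7.43, adjusted p = 4.67e-04). Fgf8, a signal of the same boundary, spanned 0.181 to 43.8 CPM in Shh tumors (7.78, adjusted p = 0.00413). Otx2 (chr14:48657677-48673819), of the forebrain and midbrain and also of the choroid plexus, was at 97.3, 97.1, 217, 200 and 295 CPM in Shh tumors. Its Myc values were 563 CPM in R26P115 and 0 to 0.0573 CPM in the other 5 tumors. It was not called over all 11 tumors (0.95, SE 2.14, adjusted p = 0.762), and was higher by 12.46 without R26P115 (adjusted p = 5.12e-06). Of 39 Hox genes, 1 was higher and 2 lower, with a median of 0.10. Without R26P115 4 were lower and the median was -0.12, and among numbered mice 7 were lower and 0 higher. Hoxc8, of the trunk, was at 0.103 to 4.5 CPM in Shh and 2.71 to 135 CPM in Myc tumors (-5.02, adjusted p = 0.0127).

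Of 64 Wnt genes 17 were higher and 11 lower (median 0.42). The count of lower genes fell to 7 without 29048, to 4 without 29050A, to 5 without 38594A, to 6 without R26P87, to 7 without R26P98 or 43992A, and was 3 on the TPM scale. With the Myc tumors of E6 and E7 alone 10 were higher and 7 lower. The ligand Wnt3 was at 52.3, 78.7, 109, 116 and 208 CPM in Shh tumors and at 0.0471, 0.165 and 0.383 CPM in Myc tumors (9.19, SE 0.67, adjusted p = 5.70e-05). The feedback inhibitor Nkd1 was higher by 6.14. On the other side lay the ligand Wnt2 (-7.30) and the secreted inhibitor Dkk2, at 2.16 to 6.01 CPM in Shh and 7.13 to 1578 CPM in Myc tumors (-6.86, adjusted p = 0.00713). Of 57 BMP and TGF-beta genes, 3 were higher and 17 lower, and the median of -0.88 became 0.06 on the TPM scale, where 6 were higher and 12 lower. The receptors Acvr2b (2.53) and Bmpr1b (3.87) were higher. The coreceptor Tgfbr3 was at 7.82 to 20.9 against 91.7 to 445 CPM (-4.44, adjusted p = 1.45e-04). Tgfbi, a secreted target of TGF-beta, was at 10.6, 10.5, 17, 24.7 and 5.4 CPM in Shh tumors and at 98.1, 232 and 396 CPM in Myc tumors (-4.16, SE 0.50, adjusted p = 3.06e-04).

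Of 59 FGF, PDGF and IGF genes, 8 were higher and 7 lower, shares near the background, and the median of -0.21 became 0.25 on the TPM scale, where 14 were higher and 6 lower. With the Myc tumors of E6 and E7 alone 3 were higher and 6 lower. Fgf13, a neuronal channel partner, was higher by 5.28, whereas Igfbp3, which binds IGF, was lower (-3.51, adjusted p = 0.0028), as was the IGF2 scavenger Igf2r (-2.47). Of 24 Hippo genes with a count, 2 were higher and 8 lower, with a median of -0.50 that became 0.10 on the TPM scale, where 3 were higher and 4 lower. The factor Tead2 (3.49) and the secreted Fjx1 (3.38) were higher. Ctgf, a target of Yap, was at 14.8 to 22.7 CPM against 46.7 to 367 CPM (-2.84, adjusted p = 0.00178), and the receptor Axl was lower too (-3.57, adjusted p = 6.14e-04).

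**Figure D3:**
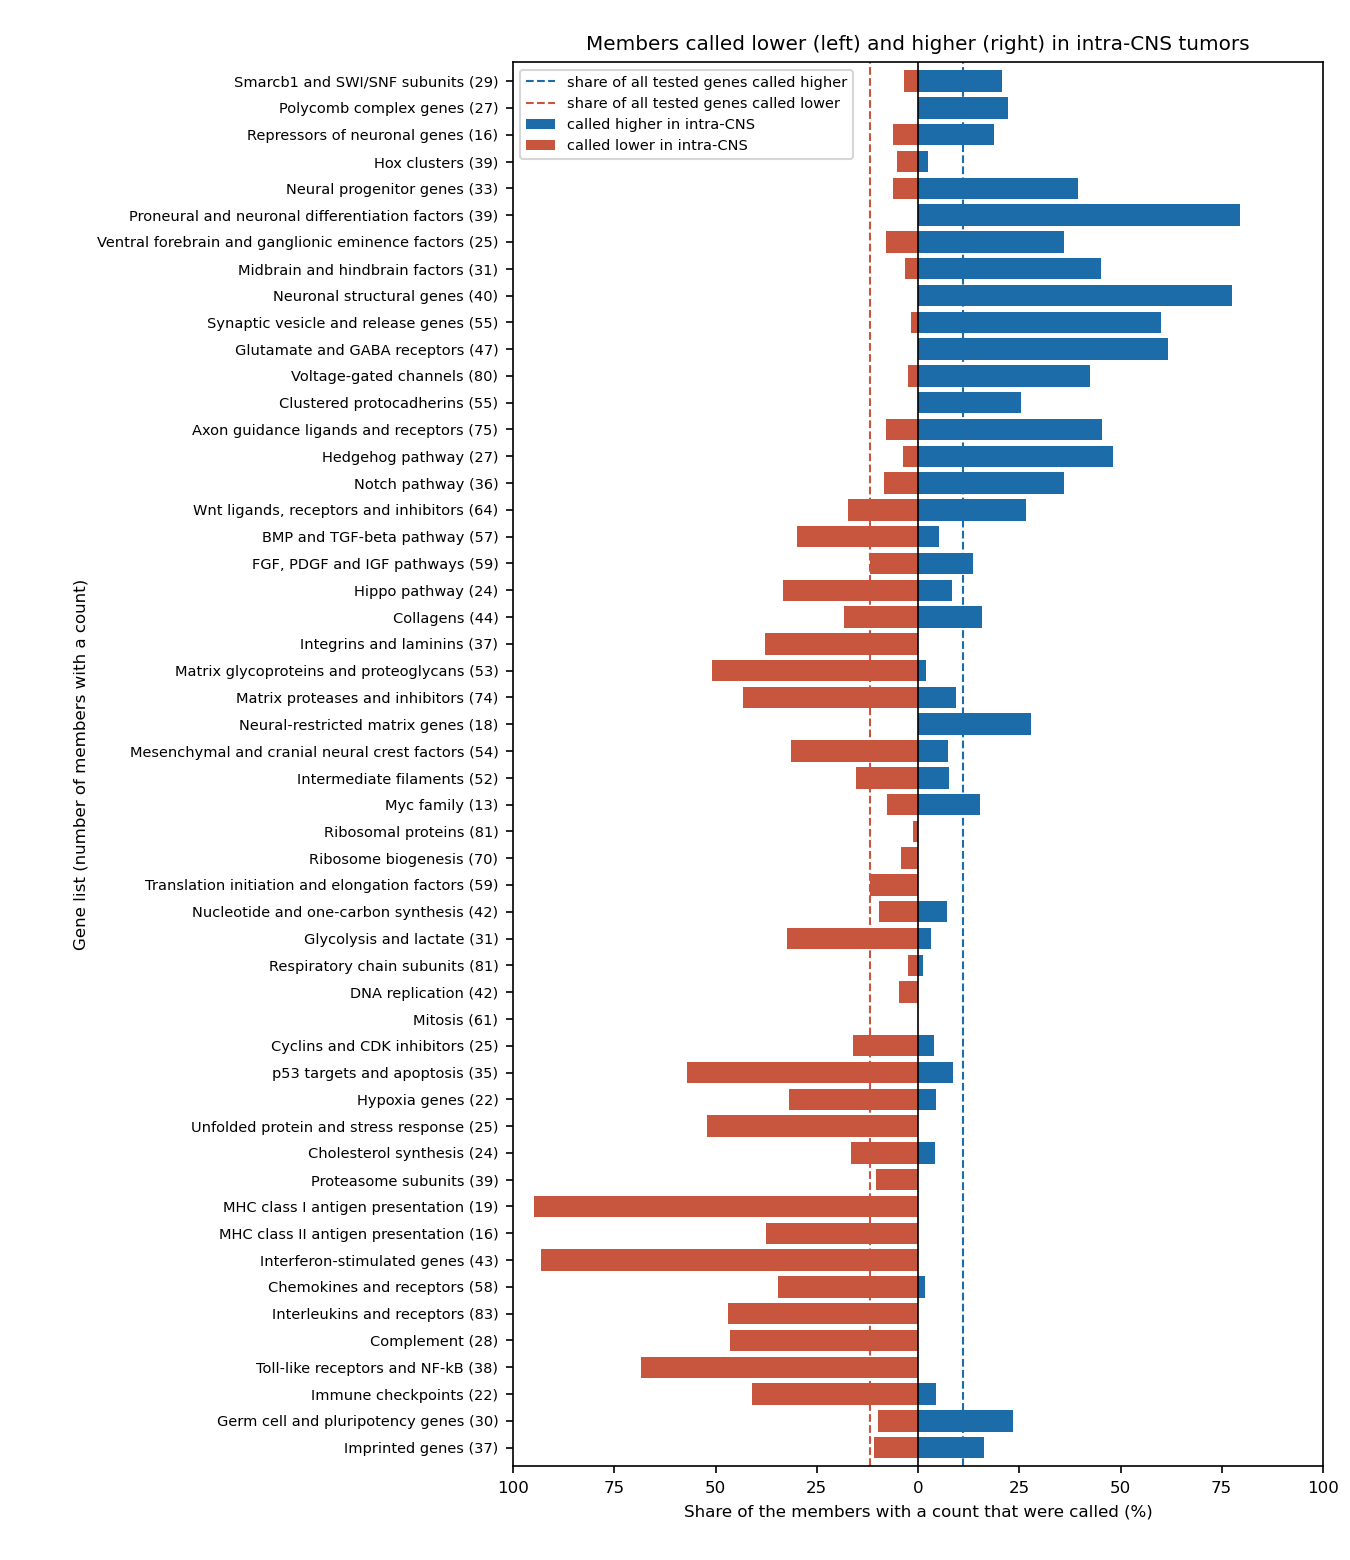
Share of the members of each gene list (y axis, with the number of members that had a count) called lower, drawn to the left, or higher, drawn to the right, in Shh tumors (x axis, percent); dashed lines mark the shares over all 21418 genes, 11% higher and 11.9% lower. Neuronal lists reach furthest to the right and interferon and MHC class I lists furthest to the left, whereas the mitosis list has no bar.

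Of 53 matrix glycoproteins and proteoglycans, 27 were lower and 1 higher (median -2.14), and of 37 integrins and laminins 14 were lower and 0 higher (median -1.68). On the TPM scale 7 integrins and laminins were lower and 3 higher (median -0.63). Ecm1 (chr3:95734147-95739569), a secreted matrix protein, was at 10.1, 11.3, 15, 16.1 and 19.3 CPM in Shh tumors and at 176, 2246 and 8498 CPM in Myc tumors (-7.89, SE 0.95, adjusted p = 3.05e-04). Itga5, a subunit of the fibronectin receptor, was at 8.8, 9.4, 9.28, 15.2 and 14.9 CPM and at 52.5, 114 and 177 CPM (-3.30, SE 0.33, adjusted p = 1.26e-04). The lowest Myc tumor was R26P115 for both genes, and the groups did not overlap. Mfap2, a component of microfibrils, was the member called higher (3.66, adjusted p = 0.00139), and Itga9 was lower (-2.43).

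Of 44 collagens, 7 were higher and 8 lower, shares near the background, with a median of -1.21 that became 0.12 on the TPM scale. Summed over the list, collagen RNA was nevertheless at 1412 to 3026 CPM in Shh and 4611 to 23416 CPM in Myc tumors. Col1a2, of fibrillar collagen I, was at 138, 95.7, 46.5, 48.8 and 38.5 CPM and at 404, 2089 and 6831 CPM (-5.41, SE 0.88, adjusted p = 0.00134). Col2a1, of cartilage and of the early neuroepithelium, went the other way at 12.7 to 263 against 0.287 to 7.75 CPM (5.80, adjusted p = 0.00276). Without 29048, 7 collagens were higher and 3 lower, without 29050A 2 were lower, and without R26P115 11 were higher and 10 lower with a median of -0.29. On the TPM scale 7 were higher and 3 lower, and with the Myc tumors of E6 and E7 alone 3 were higher and 9 lower. Of 18 matrix genes restricted to neural tissue, 5 were higher and 0 lower, such as the proteoglycans Bcan (6.44) and Cspg5 (4.08). Their median was 1.18, and -0.04 without 29048.

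Of 74 matrix proteases and inhibitors, 32 were lower and 7 higher (median -1.95, and -1.48 with genes at their bound). Plaur (chr7:24462484-24475968), the urokinase receptor, was at 2.09, 1.96, 1.97, 2.16 and 2.7 CPM in Shh tumors and at 35.9, 134 and 204 CPM in Myc tumors (-5.92, SE 0.46, adjusted p = 5.79e-05). Mmp1a, a collagenase, had 1 count over the 5 Shh tumors and 0.0471, 4.53 and 971 CPM in Myc tumors. Its pooled ratio of Myc over Shh was 22676 with a counting interval of 4070 to 895641, and 26444 of the 27576 Myc counts came from R26P170. Adamts16 was higher (5.19) and the lysosomal Ctsa lower (-1.58, adjusted p = 2.77e-04).

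Of 54 mesenchymal and cranial neural crest factors, 17 were lower and 4 higher (median -1.88, and -1.48 with genes at their bound). The lower count was 11 without 38594A and 9 on the TPM scale (median -0.41). Snai1, of epithelial to mesenchymal transition, was at 0.462 to 2.03 against 6.93 to 17.2 CPM (-3.27, adjusted p = 6.14e-04), and the skeletal factor Tbx15 was lower too (-5.51). Hand2, of limb, heart and sympathetic neurons, was higher in Shh tumors at 60.8, 66.3, 189, 324 and 167 CPM against 0, 3.97 and 16.4 CPM (4.78, SE 1.04, adjusted p = 0.00604). Zeb1 was higher as well (1.31, adjusted p = 0.0023). The filament gene Vim was at 649, 1085, 833, 1612 and 1110 CPM and at 599, 7316 and 15109 CPM (-2.84, SE 0.64, adjusted p = 0.00711). Its lowest Myc value was R26P115, and the other 5 Myc tumors lay above every Shh tumor. Krt18, a keratin of simple epithelia, was at 5.34, 0.0515, 0.414, 0.329 and 0 CPM and at 38.8, 226 and 1290 CPM (-8.42, SE 1.74, adjusted p = 0.00468), and its partner Krt8 followed (-8.33). Over 52 intermediate filament genes 4 were higher and 8 lower, 1 was higher and 6 lower both without 29048 and with the Myc tumors of E6 and E7 alone, and 4 were lower on the TPM scale. The neuronal Ina was at 249 CPM in 29048 and at 3.47 to 47.9 CPM in the other Shh tumors (5.97, adjusted p = 0.00803, and 4.11, adjusted p = 0.0243, without 29048).

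Summed markers of meningeal cells and fibroblasts were at 824 to 1860 CPM in Shh and 4398 to 19236 CPM in Myc tumors, without overlap, while 6 of 20 markers were lower and 1 higher, and 3 were lower without 38594A. The collagen-binding Lum was at 0.824 to 6.04 against 2.87 to 1350 CPM (-6.63, adjusted p = 0.00472). Pericyte and smooth muscle markers (1 of 14 lower, 1 higher, median -0.28, and 0.18 on the TPM scale) overlapped at 248 to 643 and 192 to 701 CPM, and Pdgfrb was lower (-2.63, adjusted p = 0.00674). Endothelial markers overlapped too at 852 to 1829 and 1016 to 2182 CPM, and their median of -0.38 became 0.43 on the TPM scale. The part of stromal cells in the matrix results was not tested.

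**Figure D4:**
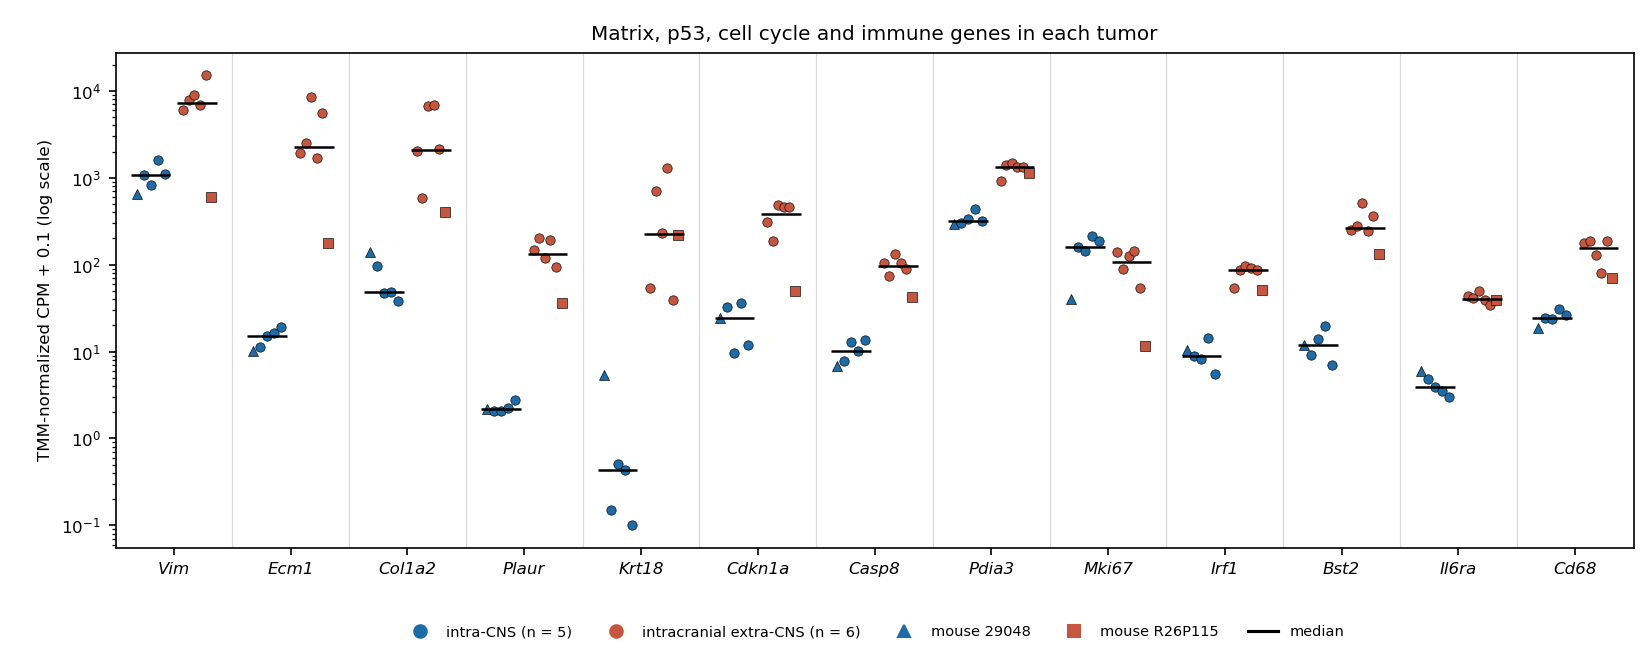
TMM-normalized CPM plus 0.1 on a log scale (y axis) of 13 matrix, p53, cell cycle and immune genes (x axis) in each tumor, with group medians as bars. All but Vim and Mki67 lie lower in every Shh tumor than in any Myc tumor, and R26P115 is the lowest Myc tumor for 10 of the 13 genes.

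The lists of growth genes had smaller median changes than the gene Myc, while single members differed more. Of 81 ribosomal protein genes, 0 were higher and 1 lower, with all 81 log2 fold changes below 0 and a median of -0.59, which was 0.03 on the TPM scale. The member called was Rps27l (-1.88, adjusted p = 5.22e-04), known as a target of p53. Of 70 ribosome biogenesis genes 0 were higher and 3 lower (median -0.47, and 0.11 on the TPM scale). Of 59 translation factors 0 were higher and 7 lower (median -0.50, and 0.03 on the TPM scale). Without R26P115, in which these RNAs were low, the counts lower in Shh tumors were 11, 8 and 12. Summed ribosomal protein RNA was at 15839 CPM in 29048 and 17310 CPM in R26P115, the lowest of each group, whereas the other Shh tumors had 25307 to 40391 CPM and the other Myc tumors 36272 to 66407 CPM. Utp4, of the small subunit processome, was lower (-1.26). Eif4ebp1, which restrains cap-dependent translation, was at 1.71, 2.39, 1.53, 4.71 and 6.97 CPM and at 12.6, 76.2 and 150 CPM (-4.55, SE 0.67, adjusted p = 7.67e-04). Eif2ak2, a kinase induced by interferon that blocks translation, was lower as well (-2.32, adjusted p = 2.49e-04).

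Of 42 nucleotide and one-carbon genes, 3 were higher and 4 lower, with a median of -0.33 that became 0.27 on the TPM scale, where 6 were higher and 0 lower. Psat1, of serine synthesis, was at 376, 749, 811, 746 and 871 CPM in Shh tumors and at 26.5, 61 and 210 CPM in Myc tumors (3.09, SE 0.49, adjusted p = 0.00117). Slc7a11, the cystine transporter, was higher (3.16) and the salvage enzyme Aprt lower (-2.20). Of 31 glycolysis genes, 10 were lower and 1 higher (median -0.92), and on the TPM scale 5 were lower (median -0.28). Ldha, which makes lactate, was at 119, 179, 69.4, 299 and 82.4 CPM and at 534, 554 and 878 CPM (-2.05, SE 0.38, adjusted p = 0.00273). Of 22 hypoxia genes, 7 were lower and 1 higher (median -0.65), 4 were lower without 38594A, 29050A or R26P98, and 3 on the TPM scale (median -0.11). The glucose transporter Slc2a1 (-2.54) and the collagen crosslinker Lox (-5.10) were lower, and the hydroxylase Egln3 was higher (2.94, adjusted p = 0.0122). Of 81 respiratory chain subunits 1 was higher and 2 lower, with a median of -0.24 that became 0.34 on the TPM scale. Of 24 cholesterol genes 1 was higher and 4 lower (median -0.37, and 0.25 on the TPM scale), among the latter Msmo1 (-2.13).

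Of 61 mitosis genes 0 were called in either direction by edgeR, with a median of 0.22, where 3 had an unadjusted p under 0.05, DESeq2 called 1 and limma 3. Of 42 replication genes 0 were higher and 2 lower, and the median of -0.04 became 0.57 on the TPM scale. Mki67, the Ki-67 antigen, was at 40.3, 158, 143, 216 and 185 CPM in Shh tumors and at 11.5, 108 and 142 CPM in Myc tumors (0.66, SE 0.56, adjusted p = 0.392). Top2a was at 64.6, 234, 211, 308 and 360 CPM and at 18.6, 138 and 201 CPM (0.90, SE 0.54, adjusted p = 0.23). For both genes 29048 and R26P115 were the lowest of their groups, which overlapped. Of 25 cyclins and inhibitors, 1 was higher and 4 lower (median -0.01, and 0.56 on the TPM scale), namely Rb1 (1.40, adjusted p = 0.00128) on one side and Cdkn1a and Ccnd3 (-2.29) among the others.

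Of 35 p53 targets and apoptosis genes, 20 were lower and 3 higher (median -1.54). Cdkn1a (chr17:29090976-29100727), which encodes p21, was at 24.2, 32.2, 9.43, 35.9 and 11.7 CPM in Shh tumors and at 49.6, 383 and 487 CPM in Myc tumors (-3.84, SE 0.62, adjusted p = 0.00123). Casp8, of the death receptor pathway, was at 6.66, 7.62, 12.9, 9.98 and 13.4 CPM and at 42.4, 95.6 and 133 CPM (-3.17, SE 0.33, adjusted p = 1.47e-04). The lowest Myc tumor was R26P115 in both cases, still above every Shh tumor. Mcl1, which blocks apoptosis, was lower too (-1.69, adjusted p = 5.48e-04), whereas the neuronal BH3 gene Hrk was higher (5.20). Of 25 genes of the unfolded protein and stress response, 13 were lower and 0 higher (median -1.16), and all 25 fold changes were below 0. The chaperone Pdia3 was at 292, 299, 337, 434 and 322 CPM and at 918, 1327 and 1475 CPM (-1.91, SE 0.22, adjusted p = 2.25e-04), and the chaperone Calr was lower as well (-1.44). On the TPM scale 3 of these 25 genes and 8 of the 35 p53 genes were called lower.

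Of 43 interferon-stimulated genes, 40 were lower and 0 higher (median -3.44), and 42 were lower without R26P115. The list summed to 234 to 630 CPM in Shh and 1454 to 4730 CPM in Myc tumors. Irf1, a transcription factor of the interferon response, was at 10.2, 8.75, 8.19, 14.2 and 5.4 CPM in Shh tumors and at 50.4, 86 and 95.6 CPM in Myc tumors (-3.05, SE 0.30, adjusted p = 1.21e-04). Bst2 (chr8:71534255-71537456), which tethers virions to the cell surface, was at 11.7, 9.09, 14, 19.7 and 6.97 CPM and at 132, 263 and 512 CPM (-4.59, SE 0.42, adjusted p = 9.03e-05). The Myc tumors all lay above the Shh tumors for both genes. Parp14, of the same list, was lower too (-3.55, adjusted p = 1.21e-04).

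Of 19 MHC class I genes with a count, 18 were lower and 0 higher (median -2.71). B2m, the light chain of class I molecules, was at 157, 146, 193, 238 and 131 CPM in Shh tumors and at 431, 1067 and 1865 CPM in Myc tumors (-2.63, SE 0.36, adjusted p = 5.48e-04), and R26P115 was the lowest Myc tumor. The peptide transporter Tap2 (-2.55) and the immunoproteasome subunit Psmb8 (-3.30) were lower, while over 39 proteasome genes 4 were lower and 0 higher, a share near the background, with a median of -0.46 that became 0.08 on the TPM scale. Reads of the closely related class I heavy chain genes may be split between copies. Of 16 MHC class II genes, 6 were lower and 0 higher (median -1.99), with H2-DMa at 7.93 to 13.3 against 17.6 to 53.8 CPM (-1.50) and the thiol reductase Ifi30 at -3.91 (adjusted p = 4.69e-04).

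Promoters of 3 called genes on this side are shown for the AP-1 letters TGANTCA, read by Fos and Jun proteins, in Plaur, and for the interferon response letters, GAAA followed by any 2 bases and GAAA, in B2m and Bst2. They were chosen and cut in the same way as the neural ones. Capitals mark the matches in Plaur (chr7:24462233-24462482, plus strand, 1 match), B2m (chr2:122147437-122147686, plus strand, 1 match) and Bst2 (chr8:71537473-71537722, minus strand, 2 matches that overlap each other).
Plaur: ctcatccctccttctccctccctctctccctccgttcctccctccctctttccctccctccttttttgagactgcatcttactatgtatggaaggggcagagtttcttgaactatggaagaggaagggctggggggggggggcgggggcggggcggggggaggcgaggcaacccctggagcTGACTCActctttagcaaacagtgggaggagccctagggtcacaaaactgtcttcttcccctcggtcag
B2m: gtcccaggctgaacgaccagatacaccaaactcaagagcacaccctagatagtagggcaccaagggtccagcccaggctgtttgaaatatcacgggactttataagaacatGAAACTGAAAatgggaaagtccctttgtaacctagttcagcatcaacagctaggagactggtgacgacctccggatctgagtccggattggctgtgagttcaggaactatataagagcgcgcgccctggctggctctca
Bst2: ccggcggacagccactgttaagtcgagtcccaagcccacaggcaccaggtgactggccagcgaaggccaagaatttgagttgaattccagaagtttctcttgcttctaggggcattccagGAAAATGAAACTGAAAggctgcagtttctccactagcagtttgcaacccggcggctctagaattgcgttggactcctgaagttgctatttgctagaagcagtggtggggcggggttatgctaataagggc
Of the 22862 promoters, 6.96% held TGANTCA and 3.11% held the interferon letters on either strand.

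Of 83 interleukins and receptors, 39 were lower and 0 higher (median -1.92, and -1.53 with genes at their bound). On the TPM scale 21 were lower and 1 higher (median -0.43), and 28 were lower without 38594A. Il6ra, the receptor for interleukin 6, was at 5.86, 4.71, 3.82, 3.4 and 2.92 CPM and at 34.1, 40.1 and 50.2 CPM (-3.31, SE 0.26, adjusted p = 5.79e-05), a narrow spread in both groups. Tnfrsf1a, the receptor for tumor necrosis factor, was lower as well (-3.50, adjusted p = 1.57e-04). Of 58 chemokines and receptors, 20 were lower and 1 higher (median -2.64, -2.46 with genes at their bound, and -0.24 on the TPM scale with 20 lower). Ccl9, a chemokine of macrophages, was at 1.68, 0.618, 0.983, 1.06 and 0.498 CPM and at 37.6, 61.8 and 158 CPM (-6.19, SE 0.55, adjusted p = 7.39e-05), and Ccr1, which binds it, was lower too (-4.57). The chemokine called higher was Ccl27a (2.31, adjusted p = 0.013). Of 38 genes of Toll-like receptors and NF-kB, 26 were lower and 0 higher (median -2.01), with the adaptor Ticam1 at -2.0 and Tlr13, a sensor of bacterial RNA, at -2.78. Of 28 complement genes, 13 were lower and 0 higher (median -2.15), among them C3ar1 (-2.62) and Itgam (-2.42). Of 22 checkpoint genes, 9 were lower (5 without 38594A, 6 without 29048, 4 on the TPM scale), such as Pvr (-3.77) and Lgals9 (-1.85), and Cd276 was higher at 23.9 to 116 against 8.78 to 19.9 CPM (2.65, adjusted p = 7.09e-04).

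Of 22 macrophage and monocyte markers 18 were lower and 0 higher (median -2.74), and they summed to 338 to 570 CPM in Shh and 1416 to 5301 CPM in Myc tumors, without overlap. Cd68, of macrophage lysosomes, was at 18.8, 24.2, 23.3, 31 and 26.1 CPM and at 69.3, 154 and 189 CPM (-2.49, SE 0.31, adjusted p = 3.40e-04). Fcgr1, an antibody receptor, was lower too (-2.90). Spp1 (osteopontin), counted in the cartilage and bone list and not among these markers, was at 12.9 to 44.7 against 145 to 1123 CPM (-4.44, adjusted p = 3.82e-04). Microglia markers, of which 2 were higher and 2 lower (median -0.27, and 0.62 on the TPM scale), summed to 606 to 1482 and 1152 to 4320 CPM and overlapped through 29048 and R26P115. Lymphocyte markers were low, at 7.73 to 11.7 and 15.2 to 81.2 CPM in sum, with 9 of 27 lower. That count was 5 without 29048, 4 without 38594A, 1 with the Myc tumors of E6 and E7 alone and 0 with limma on TPM. Gzmb, a protease of cytotoxic cells, was at most 0.146 CPM in Shh and at 0.22 to 18.4 CPM in Myc tumors (-6.60). Of its 2125 Myc counts, 1968 came from 29941C. Of 16 neutrophil and mast cell markers 8 were lower (4 without 38594A or R26P87, and 4 on the TPM scale), and S100a8 was at 0.0257 to 0.336 against 1.89 to 27.8 CPM (-6.45, adjusted p = 7.32e-04). Cxcr2, their chemokine receptor, was lower as well (-6.89). How much of the difference in interferon and MHC genes came with these cells was not tested.

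Of 14 astrocyte markers 2 were higher with and without 29048, with a median of 1.82 that was 0.06 without 29048, and Slc1a2, a glutamate transporter, was at 132 to 1546 against 1.44 to 64.8 CPM (4.84, adjusted p = 0.00692, and 3.73, adjusted p = 0.016, without 29048). Of 14 oligodendrocyte markers 2 were higher (1 without 29048, 5 without R26P87), with a median of 3.65 that was -0.51 without 29048. The defining choroid plexus gene Ttr was at 1793, 1.31, 0.918, 0.256 and 0.0356 CPM in Shh tumors and at 0, 0.119 and 131679 CPM in Myc tumors, and it was not called (adjusted p = 0.314). Enpp2 was not called either (-5.77, adjusted p = 0.16), and was higher by 5.01 without R26P115. Of the 18 choroid plexus markers 0 were called by edgeR over all 11 tumors, where 4 had an unadjusted p under 0.05, DESeq2 called 2 and limma 3. In the edgeR fit, 9 were higher and 0 lower without R26P115, and 5 were higher and 1 lower without both R26P115 and 29048. Without both, Ttr was not called (1.72, adjusted p = 0.258, edgeR). The list includes Otx2, which is also a gene of the forebrain and midbrain.

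Genes of early embryos and germ cells held some of the widest ranges. Of 30 such genes, 7 were higher and 3 lower (median 0.99, and 0.67 with genes at their bound). Nanog, of pluripotent cells, was at 2.35 to 494 CPM in Shh tumors and at most 0.86 CPM in Myc tumors (9.23, adjusted p = 0.00239). Kitl, the ligand of the receptor Kit, was at 141, 280, 162, 141 and 174 CPM and at 3.23, 11.5 and 14.8 CPM (4.14, SE 0.39, adjusted p = 1.06e-04). Klf4 was lower (-3.89, adjusted p = 0.00401). Of 37 imprinted genes with a count, 6 were higher and 4 lower (median -0.01, and 0.47 on the TPM scale), with 3 higher without 38594A, 8 lower without R26P115 and 11 higher on the TPM scale, and Dlk1, a transmembrane regulator of differentiation, was at 2.06 to 46.3 against 58.7 to 2657 CPM (-6.30, adjusted p = 0.00531).

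The remaining genes at the ends of the ranking were mostly absent from a whole group. On the Shh side, Dmrtb1, a factor of spermatogonia, had no count in Myc tumors and was at least 107-fold higher at 2.5 to 23 CPM. Nkx2-3 (11.26) and A830011K09Rik (10.65), a transcript without a known role, were at most 0.0735 CPM in Myc tumors. On the Myc side, Psg22, Gata4 and Gzme had no count in any Shh tumor. They were at least 956-fold, 541-fold and 116-fold higher in Myc tumors. Among those tumors they spanned 0.0655 to 272, 0.11 to 220 and 0.0492 to 51.6 CPM, so that these folds rest on few tumors. Of the Myc counts, 14011 of 14940 for Gata4 came from 29225D, and 5512 of 5627 for Gzme from 29941C. Psg22 and Gzme belong to families of similar genes, between which reads may be split. Ereg, a ligand of the EGF receptor, was at most 0.232 CPM in Shh and 2.07 to 365 CPM in Myc tumors (-11.28, adjusted p = 6.06e-04).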

How the data were processed

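Polyadenylated RNA of 11 tumors, each from its own mouse, was sequenced after a stranded library preparation. The authors mapped and counted reads with STAR 2.5.3a on mm10, and the deposited counts are whole numbers per gene symbol without normalization. The deposited TPM values are scaled by gene length and to the same total in every tumor, those of mouse 29048 included. The submitters' processing notes also name Trim Galore, FastQC and Picard. The gene annotation, gene lengths and strand setting are not given in the sources used here. Of 21418 genes tested, 21066 symbols were found in GENCODE M21 (GRCm38), which gave positions.

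Genes with any count in the 11 tumors were fitted with edgeR 4.0.16 (TMM, glmQLFit and glmQLFTest, R 4.3.3), without covariates, with Benjamini-Hochberg adjustment over all genes. SE is the log2 fold change divided by the root of F. Groups came from the labelled site. The deposited counts give totals of 17889968 to 110177889 per tumor, where 3 counts correspond to 0.0281 to 0.173 CPM. Floors and Poisson intervals (95%) cover counting error only. Age was compared with an exact permutation test (scipy). On simulated counts with 200 of 21418 genes changed, the same fit recovered 30% of them at a 4-fold change, beside 4 false calls. At an 8-fold change it recovered 72.5%, beside 6. Far fewer genes were changed there than the 4919 called in the data, so that these shares do not give the recovery of the fit reported here.

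The tumors, the 73 gene lists and the motifs were chosen with earlier results of these data known. Genes are named by a rule: Smarcb1, Smarca4, Myc, Mycn, Gli1, Gli2, Ptch1, Ccnd1, Ccnd2, Rest and Otx2, the 5 highest and 5 lowest log2 fold changes among called genes that averaged 50 counts or more and did not overlap, and per list the 2 called members of lowest adjusted p in each direction, or without any the 2 of highest mean CPM. Of 206 genes so chosen, 142 are named, picked after their values were seen (a few items are not reported here), and Syn1 and B2m were added for their promoters. Alternatives were DESeq2 1.42.0, its size factors in edgeR, a low-count filter, limma 3.58.1 on log2(TPM + 1), no fold threshold, the naming scheme of the mice (numbered or R26P names) as covariate, mice of either scheme alone, mice given tamoxifen at E6 or E7 alone, and leaving out tumors. For the self-test, changed genes were drawn from those that averaged 50 counts or more.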

Additional observations from a re-analysis of the deposited data

Results flagged for a closer look

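Values shown per tumor, with summed lists and total counts, were searched for a tumor far from the rest of its group by Dixon's ratio on log2(CPM + 0.1), which chance alone passes in about 5% of groups. Of 142 groups of values, 22 passed, 9 for R26P115 and 8 for 29048.

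In R26P115, Myc was low at 11.3 CPM (other Myc tumors 103 to 250), Rbpj at 88.3 (347 to 598), Vim at 599 (6021 to 15109), summed mitosis genes at 452 (1593 to 3339) and summed interferon-stimulated genes at 1454 (3325 to 4730). In the same tumor Otx2 was high at 563 CPM (0 to 0.0573), Ttr at 131679 (0 to 0.631), choroid plexus markers at 237188 (16.8 to 96) and melanocyte markers at 323 (9.99 to 22.3).

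In 29048, Mycl was low at 42.1 CPM (other Shh tumors 83.1 to 101), Sox1 at 102 (276 to 413), Psat1 at 376 (746 to 871), Mki67 at 40.3 (143 to 216) and summed mitosis genes at 970 (2594 to 3660). Ttr was high there at 1793 CPM (0.0356 to 1.31), oligodendrocyte markers at 11121 (103 to 291) and choroid plexus markers at 3031 (298 to 437).

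In 43989C, macrophage markers summed to 5301 CPM (other Myc tumors 1416 to 2180) and Schwann cell markers to 401 (140 to 203). Skeletal muscle markers were at 93.8 CPM in R26P87 (other Shh tumors 14.5 to 24.3). Gsx1 at 0.0314 CPM in 29225D and Mmp1a at 0.0365 CPM in R26P98 were the only tumors of their group with a count, and both lie below the level of 3 counts.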

How the results depend on the processing

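Over the 11 fits without 1 tumor each, 3947 to 6187 genes were called, 1910 to 3251 higher and 2004 to 2936 lower in Shh tumors, with the highest total without R26P115 and the lowest without 38594A. DESeq2 called 5846 genes, the low-count filter left 4448, and no fold threshold gave 5721. The TPM values gave 3840 higher and 1229 lower. With tamoxifen at E6 or E7 (5 against 2 tumors) 1361 genes were higher and 2145 lower. With R26P mice alone (2 against 2) edgeR called 0 genes, 0 higher and 0 lower, where 3025 had an unadjusted p under 0.05, and no other tool was run on that subset. No call shared with the 11-tumor fit changed sign in any alternative. Of 134 named genes called, 131 kept their call in each fit without 1 tumor, and Hdac2, Gzme and Syn1 did not. With E6 or E7 118 kept it, and on the TPM scale 121, where Vim, Mmp1a, Ctdsp1, Psg22, Gata4, Gzme, Hhat, Dkk2, Utp4, Aprt, Calr, H2-DMa and Gzmb lost it. Gzme lost it without 38594A (adjusted p = 0.0506, edgeR) and without 29050A (adjusted p = 0.0527). Without R26P115, 30 of 146 list counts moved by over 1.5 times, and 22 without 29048. The fit of E6 and E7 moved 51, and TPM 64.

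Named genes whose sign changed were not called in the 11-tumor fit. Smarcb1 was at 0.54 with numbered mice and 0.03 with E6 or E7, and ran from -1.97 without 29048 to 0.10 without R26P115. Without both it was called lower (-1.34, adjusted p = 0.0355, edgeR). Mki67 and Top2a were at -0.22 and -0.05 with numbered mice. With R26P mice alone Otx2 was at -0.16 and Ccnd1 at 0.24, and on the TPM scale Ccnd1 was at 0.05. Ttr was at 0.13 on the TPM scale, 1.73 with the naming scheme, 11.48 with numbered mice, 12.03 with E6 or E7 and 1.72 without 29048 and R26P115, and ran from -15.05 without 29048 to 11.04 without R26P115. Enpp2 was at 2.44, 3.63, 5.26, 4.64 and 3.76 in the same order, and ran from -6.96 to 5.01. The causes were not tested. Depth limits statements on genes under about 0.173 CPM, the highest level that 3 counts reach in a library. No paired analysis was possible because the replicates carry no numbers in the labels and no mouse gave more than 1 tumor.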

Other observations

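Markers of other tissues that a tumor piece could hold were counted in the same way. Of 24 cartilage and bone markers, 8 were lower and 3 higher in Shh tumors, and their sum was 197 to 935 CPM in Shh and 615 to 3042 CPM in Myc tumors. Their median log2 fold change of -0.70 became 0.10 on the TPM scale, where 4 were lower, and 0 were higher with the Myc tumors of E6 and E7 alone. Of 20 epithelial markers 5 were lower and 0 higher, with sums of 54.4 to 603 and 119 to 2254 CPM. On the TPM scale 2 epithelial markers were lower, and 8 with E6 and E7 alone. Without 29050A or R26P87, 5 cartilage and bone markers were lower. Oligodendrocyte progenitor markers, of which 4 of 10 were higher and 1 lower, summed to 140 to 528 CPM in Shh and 224 to 1733 CPM in Myc tumors. Without 29048 2 were higher and 2 lower, and with E6 and E7 alone 0 and 0. Schwann cell and nerve markers (2 of 15 higher, 1 lower) summed to 286 to 3893 and 140 to 401 CPM, and their median of -0.07 became 0.14 on the TPM scale. The highest Shh sum was that of 29048, and without it 1 was higher and 2 lower, with a median of -1.01.

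Of 24 endothelial markers 1 was higher and 3 were lower, and 4 and 3 on the TPM scale. For B and plasma cells, 3 of 13 markers were higher and 1 lower, with sums of 46.1 to 271 and 34 to 1000 CPM. For melanocytes 1 of 12 was higher, for erythroid cells 1 of 9, for the pituitary 1 of 16 (4 were lower without R26P115), for skeletal muscle 1 of 22 with 3 lower (6 without R26P115, 0 without 29050A, R26P98, R26P87 or 43989C, and 4 higher without 43989C), and for the retina and pineal gland 1 of 14 was lower.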
